A study of Mus musculus with 20 samples.

Results

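At 28 days post injury (dpi), single cells from the injured spinal cord of mice fed PLX5622 chow were compared with those of mice fed vehicle chow. The 9846 cells of the vehicle library and the 940 cells of the PLX5622 library, identified by the prefix of their columns in the count table, made up 10786 of the 21016 single cells of the study. Expression was compared inside each cluster of the study that held at least 20 cells from both libraries. Of 14 clusters, 10 met this minimum, with 10332 of the cells. The 7 clusters other than microglia (cluster 0), monocyte-derived macrophages (MDMs, cluster 1) and astrocytes (cluster 4) are described in depth.

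Female C57BL/6J mice, 8 to 10 weeks old when purchased, received a 75 kdyne contusion at thoracic level 9. Vehicle chow or chow with PLX5622 at 1200 ppm was given from 2 weeks before the injury until tissue collection, so both diets covered the whole period after injury. A cord segment of 1 cm with its meninges was dissociated without perfusion, myelin and dead cells were removed, and cells of 3 to 4 mice were pooled into 1 Chromium 3' library per diet. Blood cells inside the cord vessels are therefore part of the samples, and each diet is 1 library with no replicate check between mice.

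PLX5622 inhibits the receptor for colony stimulating factor 1, Csf1r, a kinase on which microglia and many tissue macrophages depend for survival. After contusion, microglia and monocyte-derived macrophages fill the lesion and take up myelin and dying cells, while lymphocytes, dendritic cells and neutrophils enter from the blood. Endothelial cells rebuild the barrier between blood and cord, ependymal cells line the central canal, and oligodendrocyte precursors divide to replace myelinating cells. These resident and infiltrating cells express little or no Csf1r of their own, apart from monocytes and some dendritic cells.

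The median cell held 2268.5 unique molecular identifiers (UMIs, counted transcripts) and 946 genes under vehicle, and 2641 UMIs and 1098 genes under PLX5622. The libraries had 27768968 and 3697581 UMIs, so values from the PLX5622 library are the less precise ones. The libraries shared 5 cell barcodes. Each cluster was named from its markers, and no cluster had more markers of another cell type than of its own among its 10 leading genes. The label of cluster 11, oligodendrocyte lineage, needs a limit: Cspg5, Gpr17, Olig1 and Neu4 were among its leading genes, whereas the myelin genes Mog, Mag and Mobp had no UMI in either library. These are therefore oligodendrocyte precursor-like cells rather than myelinating ones.

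Microglia and MDMs together were 74.0% of the vehicle cells and 30.5% of the PLX5622 cells, and every other cluster except the proliferating cells filled a larger part of the PLX5622 library. Shares are given with exact binomial 95% intervals, which cover counting error and not differences between mice. T and natural killer (NK) cells were 3.54% (3.19 to 3.93%) of the vehicle cells and 16.1% (13.8 to 18.6%) of the PLX5622 cells. The oligodendrocyte lineage went from 0.559% (0.421 to 0.726%) to 4.15% (2.97 to 5.63%), and astrocytes from 2.49% (2.19 to 2.82%) to 11.4% (9.42 to 13.6%). A share of all cells tends to grow in every other cluster when the largest clusters shrink, so the same shares were taken among the 2559 vehicle and 653 PLX5622 cells outside microglia and MDMs.

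Among those cells the order changed. T and NK cells were still the larger share under PLX5622, with 13.6% (12.3 to 15.0%) against 23.1% (19.9 to 26.6%), as were astrocytes with 9.57% (8.46 to 10.8%) against 16.4% (13.6 to 19.5%) and the oligodendrocyte lineage with 2.15% (1.62 to 2.79%) against 5.97% (4.28 to 8.07%). Endothelial cells were the smaller share, with 16.4% (15.0 to 17.9%) against 9.95% (7.77 to 12.5%), and so were the proliferating cells of cluster 8, with 9.69% (8.57 to 10.9%) against 2.45% (1.41 to 3.95%). The intervals overlapped for ependymal cells (10.7% and 12.9%), B cells (12.9% and 10.9%), monocytes and dendritic cells (11.1% and 9.65%) and neutrophils (7.39% and 4.90%). The other 4 of the 14 clusters had too few PLX5622 cells for a comparison of expression, namely proliferating cells with 16, pericytes and fibroblasts with 12, leptomeningeal cells with 8 and erythroid cells with 5.

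**Figure D1:**
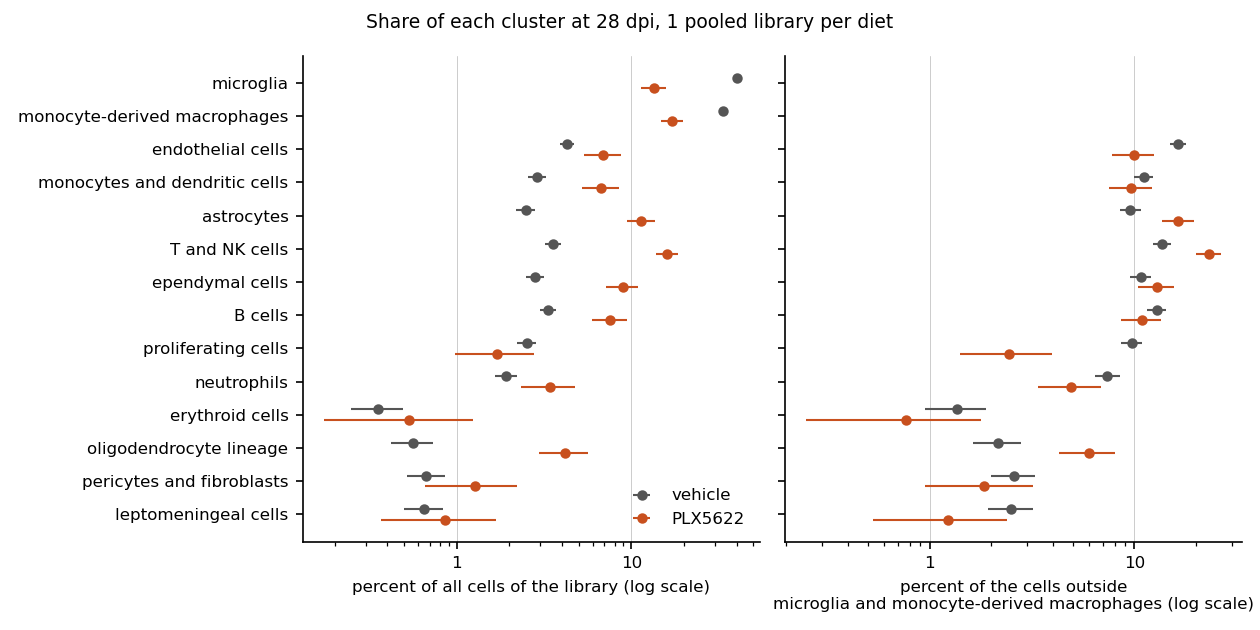
Share of each cluster in the vehicle (grey) and PLX5622 (orange) library at 28 dpi, in percent on a log axis, with exact binomial 95% intervals as bars. On the left, of all cells, every cluster except microglia, MDMs and proliferating cells has its PLX5622 point to the right of its vehicle point. On the right, of the cells outside microglia and MDMs, this holds for astrocytes, T and NK cells, ependymal cells and the oligodendrocyte lineage.

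Transcripts of myeloid cells were found in every cluster, and far more of them under vehicle. A list of 12 genes expressed by microglia and macrophages (C1qa, C1qb, C1qc, Tyrobp, Fcer1g, Ctss, Ctsb, Lyz2, Apoe, Csf1r, Cd68 and Laptm5) made up 7.51% of the UMIs of vehicle B cells and 0.419% of those of PLX5622 B cells. In T and NK cells the list went from 5.94% to 0.525%, in endothelial cells from 3.87% to 0.594%, in ependymal cells from 2.72% to 0.513%, and in the oligodendrocyte lineage from 1.92% to 0.223%. These cell types express few of the 12 genes themselves. Monocytes and dendritic cells, which do, went from 6.15% to 1.64%, and neutrophils from 5.19% to 0.953%.

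The vehicle cells were uneven in this respect. In vehicle B cells the median cell had 1.22% of its UMIs in the list and the 90th percentile 12.8%, whereas the median PLX5622 B cell had 0.242%. In T and NK cells the medians were 0.938% and 0.208%, and the vehicle 90th percentile was 11.5%. The typical vehicle cell thus held a few times the myeloid UMIs of the typical PLX5622 cell, and some vehicle cells held far more. Doublets, droplets with more than 1 cell, were kept. A caller set to the rate that each library's cell number predicts marked 776 vehicle cells (7.88%) and 7 PLX5622 cells (0.745%), so these numbers follow from the setting. Comparisons below were repeated in cells with under 1% of their UMIs from the list without Apoe, termed cells with few myeloid UMIs, a setting chosen after the data were seen. It left at least 20 cells per library in endothelial, T and NK, ependymal and B cells, astrocytes and the oligodendrocyte lineage, but not in neutrophils, and was not applied to monocytes and dendritic cells, which use the genes themselves.

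**Figure D2:**
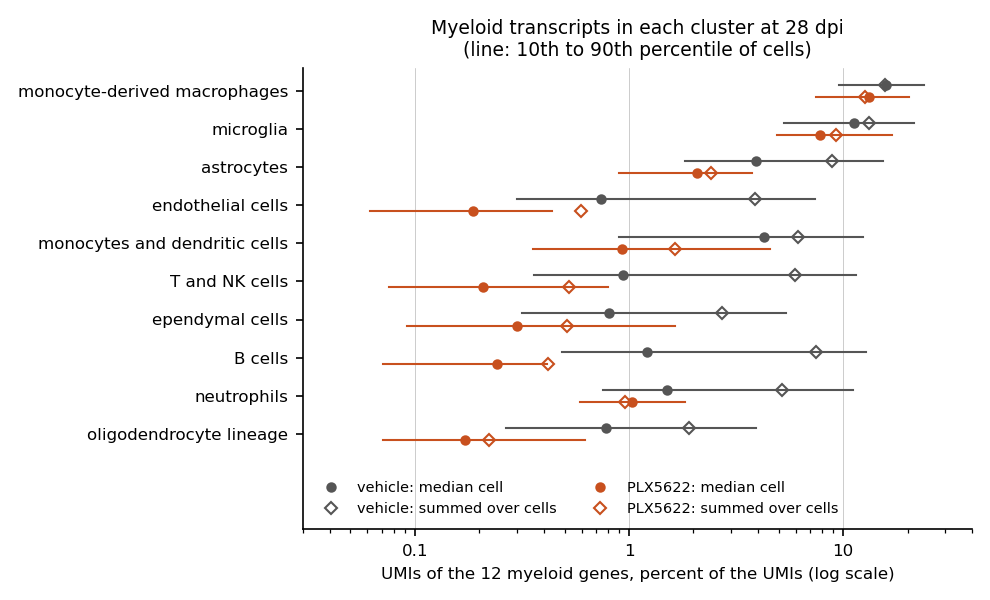
UMIs of the 12 myeloid genes as a percent of all UMIs, on a log axis, for each compared cluster and library at 28 dpi. Filled circles are the median cell, lines the 10th to 90th percentile of cells, and open diamonds the value summed over all cells of the cluster. The PLX5622 circle lies left of the vehicle circle in all 10 clusters, and the vehicle diamond lies far right of its circle in B, T and NK, endothelial and ependymal cells.

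Levels are given as CPM, the UMIs of a gene per 1000000 UMIs of the cluster in that library, and differences as log2 ratios of PLX5622 over vehicle with exact conditional 95% intervals. A gene was compared where its summed UMIs would give at least 10 in each library if its level were equal. With 1 library per diet there is no p-value, and a gene is counted as higher or lower where its levels were at least 2-fold apart. Genes lower under PLX5622 outnumbered genes higher in 7 of the 10 compared clusters. The counts were 76 (1.96%) higher and 217 (5.61%) lower of 3871 compared genes in endothelial cells, 128 (3.45%) and 540 (14.6%) of 3711 in monocytes and dendritic cells, 197 (4.51%) and 522 (12%) of 4368 in T and NK cells, and 130 (2.08%) and 281 (4.5%) of 6243 in ependymal cells. They were 104 (6.55%) and 228 (14.4%) of 1587 in B cells, 38 (4.89%) and 179 (23%) of 777 in neutrophils, and 135 (6.18%) and 128 (5.86%) of 2184 in the oligodendrocyte lineage. These shares are the background against which the members of each gene list below are to be read.

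The split between higher and lower genes depended on the scaling. Scaled by TMM factors instead of total UMIs, every log2 ratio was shifted by -0.50 in astrocytes, -0.23 in B cells, -0.17 in neutrophils and -0.12 in endothelial cells, and by less than 0.1 in the other 6 clusters. Lower genes then outnumbered higher ones in all 10 clusters, with 54 and 276 in endothelial cells, 90 and 342 in ependymal cells, 57 and 332 in B cells, 212 and 746 in astrocytes, and 139 and 204 in MDMs. With ribosomal protein genes left out of the totals, the split moved towards higher genes in some clusters, to 192 and 360 in monocytes and dendritic cells, 280 and 409 in T and NK cells, 132 and 199 in B cells and 48 and 106 in microglia. It moved towards lower genes in others, to 395 and 456 in astrocytes, 122 and 137 in the oligodendrocyte lineage, 106 and 300 in ependymal cells and 37 and 198 in neutrophils, so that lower genes then outnumbered higher ones in 9 clusters. No named gene and no list median that was 2-fold apart changed direction under these scalings.

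Myeloid transcripts were among the lower genes across clusters. Lpl, which encodes lipoprotein lipase, was at least 2-fold lower in all 10 compared clusters, and Apoe, the apolipoprotein that carries lipid out of phagocytes, and Spp1, the secreted protein osteopontin, in 9 of 10. In all, 97 genes were at least 2-fold lower in 5 or more clusters, among them the complement genes C1qa, C1qb and C1qc, the lysosomal proteases Ctsd, Ctsl, Ctsz and Lgmn, and the microglial receptor Trem2. The myeloid list was lower in all 10 clusters too, and its part in these genes was not tested.

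To look past these transcripts, the own genes of a cluster were taken as those whose CPM there, averaged over the libraries, was at least 2 times that in microglia and in MDMs. A gene high in 1 library alone can pass this rule. Their median log2 ratio was 0.25 over 1385 genes in endothelial cells, 0.06 over 399 in monocytes and dendritic cells, 0.45 over 703 in T and NK cells, 0.16 over 2947 in ependymal cells, 0.71 over 274 in B cells, 0.42 over 232 in neutrophils and 0.22 over 1180 in the oligodendrocyte lineage. The typical own gene was thus level or somewhat higher under PLX5622. In the cells with under 1% myeloid UMIs these medians were 0.02 in endothelial cells, 0.05 in T and NK cells, -0.01 in ependymal cells, 0.14 in B cells and 0.11 in the oligodendrocyte lineage. Single own genes stood far from these medians, and they are described cluster by cluster.

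**Figure D3:**
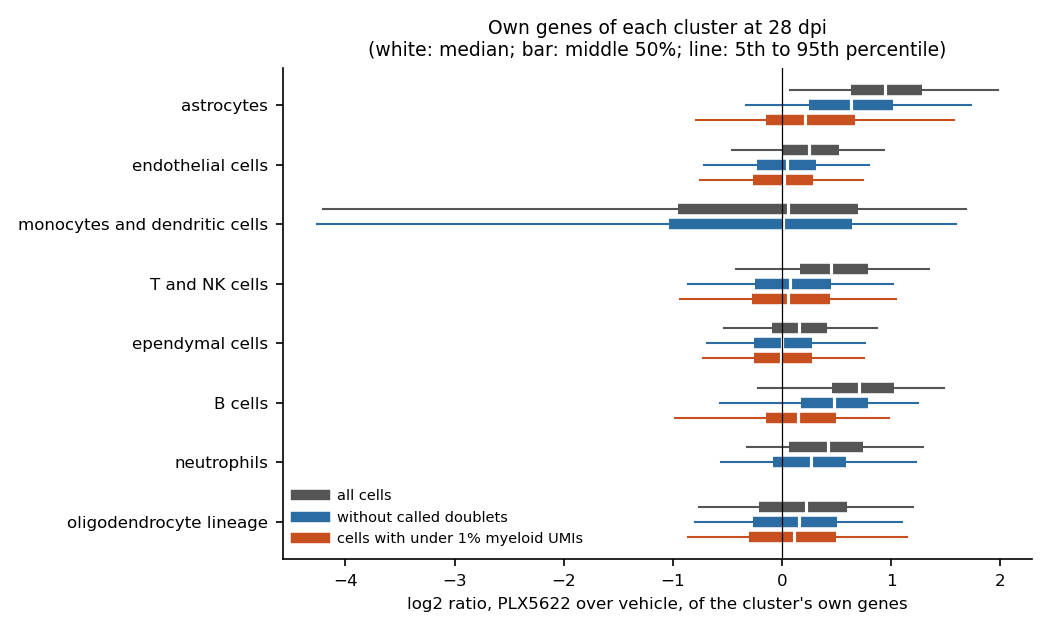
Distribution of the log2 ratio (PLX5622 over vehicle, 28 dpi) over the own genes of each cluster, in all cells (grey), without called doublets (blue) and in cells with under 1% myeloid UMIs (orange). White marks are medians, bars the middle 50% of genes and lines the 5th to 95th percentile. The medians lie between 0.06 and 0.95 in all cells and between -0.01 and 0.21 in the cells with few myeloid UMIs, and monocytes and dendritic cells have the widest line, from -4.20 to 1.69.

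In T and NK cells the own genes at the high end were NK receptor and migration genes. The NK cell receptors Klra18, Klra21 and Klra9, the chemokine receptor Ccr2 and the granule protease Gzma were all higher under PLX5622, whereas T cell receptor genes stayed near the median of the own genes. Klra18 had 16.0 CPM (10 UMIs in 5 of 349 cells) under vehicle and 155 CPM (61 UMIs in 16 of 151 cells) under PLX5622, a log2 ratio of 3.28 (2.30 to 4.41). Klra21 went from 6.41 to 56.0 CPM and Klra9 from 28.8 to 109 CPM, log2 ratios of 3.13 (1.57 to 5.12) and 1.92 (1.10 to 2.81). The Klra genes encode the Ly49 receptors, a family of near-identical copies, so which member a UMI came from is uncertain. Counted jointly, at least 2 of these 3 genes were detected in 1 of 349 vehicle cells and 16 of 151 PLX5622 cells. Since PLX5622 cells were deeper, with medians of 1233 and 2507 UMIs here and 1342 and 2389 in endothelial cells, each cell was also thinned at random to 1000 UMIs, and cells below that number were left out. The counts were then 0 of 241, which allows a share of up to 1.24% (for a count of 0 the limit is 3 cells of the total, here and below), and 10 of 148 (6.76%, 3.29 to 12.1%), with none in the 303 and 53 endothelial cells, which should lack these genes. The set was chosen after its values were seen.

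Few of the other NK genes reached a 2-fold difference. Gzma, a protease of NK cell and T cell granules, went from 378 to 1094 CPM, a log2 ratio of 1.53 (1.30 to 1.77), and was 1.95 in cells with few myeloid UMIs. The share of thinned cells with a Gzma UMI was 4.98% (2.60 to 8.54%) under vehicle and 13.5% (8.45 to 20.1%) under PLX5622, and 0.660% and 0 of 53 in endothelial cells, while without thinning it was 10.6% and 15.2%. Ncr1, the activating receptor NKp46, had a log2 ratio of 1.34 (0.53 to 2.18) and Klrb1c, the NK1.1 antigen, 0.96 (0.29 to 1.63). Of the 11 compared genes of the NK and cytotoxic list, 2 were at least 2-fold higher and none lower. Their median was 0.55, against 0.00 over all compared genes and 0.45 over the own genes. With few myeloid UMIs Ncr1 and Klrb1c were at 1.15 and 0.87, but the cytotoxic genes Nkg7 and Ctsw at -0.49 and -0.78. The share of cells with a UMI of Ncr1 or Klrb1c was 6.64% (3.84 to 10.6%) under vehicle and 10.8% (6.31 to 17.0%) under PLX5622 after thinning and 10.6% and 17.9% without it, with intervals that overlap.

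Ccr2, the receptor that draws cells along Ccl2 gradients, went from 54.5 to 209 CPM in T and NK cells, a log2 ratio of 1.94 (1.34 to 2.56), and was detected in 26 and 45 cells. S100a4, a calcium binding protein of motile cells, went from 370.1 to 942 CPM (1.35 on the log2 scale, 1.11 to 1.59). In the cells with few myeloid UMIs the ratios were 1.63 and 0.67. Both were thus higher in both sets of cells.

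The T cell receptor genes stayed near the median of the own genes. Cd3e, Cd3g and Cd3d, the invariant chains of the receptor, had log2 ratios of 0.76, 0.55 and 0.63 in all cells and of 0.24, -0.06 and 0.02 in the cells with few myeloid UMIs. Of the 8 compared members of the receptor list, only Cd247, its zeta chain, was at least 2-fold higher, at 1.13. Cd8a and Cd8b1, the chains of the CD8 coreceptor, went from 209.9 to 173 CPM and from 364 to 344 CPM, ratios of -0.28 (-0.72 to 0.16) and -0.08 (-0.40 to 0.23) in all cells and of -1.08 and -0.76 with few myeloid UMIs. Among thinned cells with a Cd3 UMI, a CD8 UMI was found in 69 of 162 vehicle cells (42.6%, 34.9 to 50.6%) and 29 of 109 PLX5622 cells (26.6%, 18.6 to 35.9%), so the intervals overlap at their edges. Over all thinned cells of the cluster the CD8 shares were 32.0% and 21.6%, without thinning 41.8% and 27.8%, and no endothelial cell of either library had a CD8 UMI after thinning. Cd4, the coreceptor of helper T cells, went from 43.3 to 68.7 CPM on 27 UMIs in each library, a log2 ratio of 0.67 (-0.16 to 1.49), and was 0.10 with few myeloid UMIs.

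Of the 12 interferon-stimulated genes compared in T and NK cells, 4 were at least 2-fold lower and none higher, with a median of -0.37 against 0.00 over all compared genes. Isg15, a ubiquitin-like protein, went from 128 to 56.0 CPM (-1.19, -1.95 to -0.50) and the antiviral membrane protein Bst2 from 290.0 to 129.8 CPM (-1.16, -1.64 to -0.70), and both stayed lower in the cells with few myeloid UMIs, at -1.67 and -0.85. Irf7, a transcription factor that controls these genes, had a ratio of 0.12 with an interval that includes 0. Lag3, an inhibitory receptor of activated T cells that microglia also express, went from 78.5 to 15.3 CPM (-2.36, -3.88 to -1.14). Several of the lowest own genes rested on few cells. S100a9 and S100a8, which neutrophils express at very high levels, were at -3.63 and -3.00, with 57.9% and 63.0% of their vehicle UMIs in 1 cell, and the 39 UMIs of the granzyme Gzmc were all under vehicle, with 51.3% of them in 1 cell.

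In B cells a small set of genes was far lower under PLX5622. S100a6, S100a4, Ahnak and Tppp3, which encode 2 calcium binding proteins, a large scaffold protein and a tubulin binding protein, had most of their UMIs in the vehicle library. S100a6 had 1310.4 CPM (771 UMIs in 88 of 329 cells) under vehicle and 129.5 CPM (16 UMIs in 4 of 71 cells) under PLX5622, a log2 ratio of -3.34 (-4.15 to -2.63). S100a4 was at -3.26 (-6.32 to -1.36), Tppp3 at -2.57 (-4.88 to -0.98) and Ahnak at -1.75 (-2.91 to -0.78). In the cells with few myeloid UMIs the differences were as large, at -3.72, -3.86, -2.98 and -2.52. At least 2 of the 4 genes were detected in 68 of 329 vehicle cells (20.7%, 16.4 to 25.5%) and 2 of 71 PLX5622 cells (2.82%, 0.343 to 9.81%). Thinned to 1000 UMIs, the counts were 46 of 160 (28.75%) and 0 of 71, which allows a share of up to 4.23%, while endothelial cells, which express some of these genes, had 3.30% and 7.55%. The set was chosen after its values were seen.

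Most identity genes of B cells lay near the median of the own genes. Cd79a and Cd79b, the signalling chains of the B cell receptor, went from 1640.2 to 3109 CPM and from 1412 to 2753 CPM, log2 ratios of 0.92 (0.75 to 1.09) and 0.96 (0.78 to 1.15). In the cells with few myeloid UMIs they were at 0.14 and 0.13, and Ms4a1, the antigen CD20, was at 0.79 and 0.03. Of the 10 compared identity genes 3 were at least 2-fold higher and none lower, with a median of 0.92 against 0.09 over all compared genes. The identity genes Faim3, the IgM receptor, and Bank1, a scaffold of receptor signalling, were at 1.45 and 1.41 in all cells and at 0.51 and 0.84 in those with few myeloid UMIs.

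Single genes of naive B cells and of antigen presentation were among the higher genes. Fcer2a, the low affinity IgE receptor CD23 of follicular B cells, went from 56.1 CPM (33 UMIs) to 251 CPM (31 UMIs), a log2 ratio of 2.16 (1.41 to 2.91), and was still 1.53 with few myeloid UMIs. Cd55, a complement inhibitor, was at 1.48 (0.69 to 2.24). Strbp, an RNA binding protein, went from 49.3 to 243 CPM (2.30, 1.51 to 3.09). Cd74, the invariant chain of MHC class II, went from 3532 to 10379 CPM (1.56, 1.45 to 1.66), and 3 of the 5 compared class II genes were at least 2-fold higher, with a median of 1.20. With few myeloid UMIs Cd74 was at 0.91, H2-Ab1 at 0.77 and H2-Aa at 0.38.

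Some plasma cell transcripts rested on few B cells. Igj, the joining chain of secreted antibody, had 915 UMIs in 3 vehicle cells, 64.0% of them in 1 cell, and none under PLX5622, where 0 of 71 cells allow a share of up to 4.23%. Xbp1, a regulator of antibody secretion, was at 1.36 with 72.2% of its PLX5622 UMIs in 1 cell, and at -0.36 without the top cell of each library. Vpreb3, a chaperone of the immunoglobulin chains in developing B cells, went from 758 to 1659.7 CPM (1.13, 0.88 to 1.37) and was at 0.10 with few myeloid UMIs. The plasma cell list gene Mzb1, a chaperone of antibody assembly, was found in 104 and 34 cells and was at 1.11 (0.71 to 1.50), with 41.2% of its PLX5622 UMIs in 1 cell. Rag1, a recombinase of B cell precursors, had 22 UMIs in 18 vehicle cells and none under PLX5622, below the minimum for a comparison.

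Monocytes and dendritic cells had the widest range of own genes. Several dendritic and plasmacytoid cell genes were higher under PLX5622, whereas a macrophage group led by Pf4, Slpi and Prg4 was nearly missing there. Ccr9, a gut homing receptor of plasmacytoid dendritic cells, had 3 UMIs in 2 of 284 vehicle cells (4.70 CPM) and 47 in 13 of 63 PLX5622 cells (151 CPM), a log2 ratio of 5.00 (3.37 to 7.33). Cd209d, a lectin of the DC-SIGN family, went from 4.70 to 144 CPM (4.94, 3.30 to 7.27) and Cox6a2, a respiratory chain subunit also known in plasmacytoid cells, from 18.8 to 257 CPM (3.77, 2.89 to 4.78). At least 2 of these 3 genes were found together in 1 of 284 vehicle cells (0.352%) and 10 of 63 PLX5622 cells (15.9%, 7.88 to 27.3%). After thinning to 1000 UMIs, the shares were 0.408% and 9.84% (3.70 to 20.2%), with none of 303 and 53 endothelial cells. This set, too, was chosen after its values were seen.

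The transcription factors Bcl11a, needed for plasmacytoid dendritic cells and B cells, and Runx2 were among the own genes at the high end. Bcl11a went from 43.9 to 324 CPM (2.88, 2.27 to 3.54) in 19 and 30 cells, and Runx2 from 20.4 to 141 CPM (2.79, 1.87 to 3.81). Of the 12 compared dendritic cell genes, 6 were at least 2-fold higher and none lower, with a median of 1.05 against -0.14 over all compared genes. Flt3, the growth factor receptor of dendritic cell precursors, was at 2.19 (1.33 to 3.11), Cd209a, a lectin of monocyte-derived dendritic cells, at 1.53 (1.12 to 1.94), and Xcr1, the chemokine receptor of cross-presenting cells, at 1.30 (0.22 to 2.39). The list includes Ccr9 and Cd209d, which the study picked from these libraries, so the count is not independent evidence of its direction. Of the other genes the study named here, Ccnd3, a cyclin, was at 1.09 (0.49 to 1.69) and H2-T23, a nonclassical class I molecule, at 0.51 (0.10 to 0.92).

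Of the 7 compared MHC class II genes 5 were at least 2-fold higher in the same cells and none lower. Cd74 went from 6353 to 15697 CPM (1.30, 1.24 to 1.37), and H2-Aa, H2-Ab1 and H2-Eb1 were at 0.95, 1.15 and 1.20. Ciita, the activator of the class II genes, was at 1.13 (0.36 to 1.89). At least 2 of the 3 H2 genes were detected in 53.2% (47.2 to 59.1%) of vehicle and 74.6% (62.1 to 84.7%) of PLX5622 cells, or in 53.1% (46.6 to 59.4%) and 65.6% (52.3 to 77.3%) after thinning, where the intervals overlap. Endothelial cells had at most 1.89% after thinning. Classical monocyte genes were mixed, with Ccr2 at 0.76, Ly6c2 at 0.96 and S100a4 at 1.13, but the secreted chitinase-like protein Chil3 at -1.05 and the transglutaminase F13a1 at -1.76.

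The macrophage group was found almost wholly in the vehicle library. Pf4, platelet factor 4, which perivascular and peritoneal macrophages also express, had 1046 UMIs in 116 of 284 vehicle cells and none in 63 PLX5622 cells, at least 170.4-fold lower when 3 UMIs are taken as the limit of a count of 0. On the same limit Prg4, the lubricant proteoglycan 4, was at least 70.9-fold lower, Alox15, a lipoxygenase, at least 69.1-fold, Cxcl13, a chemokine for B cells, at least 77.4-fold and Retnla, a marker of alternatively activated macrophages, at least 62.7-fold. Slpi, a protease inhibitor, went from 3438 to 32.1 CPM (-6.74, -7.81 to -5.86). At least 2 of Slpi, Prg4, Alox15, Cxcl13 and Retnla occurred in 48 of 284 vehicle cells (16.9%, 12.7 to 21.8%) and 0 of 63 PLX5622 cells, which allows a share of up to 4.76%, and thinning gave 17.1% and 0 of 61. No endothelial cell held 2 of them, and the set was chosen after its values were seen. A Pf4 UMI was found in 40.8% of vehicle cells, 36.7% after thinning, against 2.31% of thinned vehicle endothelial cells.

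Interferon-stimulated and lysosomal genes were also lower in this cluster. Of 13 compared interferon-stimulated genes 9 were at least 2-fold lower and none higher, with a median of -1.62 against -0.14 over all compared genes. Irf7, the transcription factor that sustains the response, went from 138 to 38.5 CPM (-1.84, -2.85 to -0.97), Ifi27l2a from 1317 to 430.0 CPM (-1.62, -1.89 to -1.35) and Oasl2 from 83.1 to 12.8 CPM (-2.70, -4.62 to -1.25). Bst2, high in plasmacytoid dendritic cells, was the exception at 0.55 (0.28 to 0.82). Of 14 compared lysosome and lipid genes 11 were at least 2-fold lower, with Ctsd at -2.64 and Cd63, a lysosomal tetraspanin, at -2.55, while Psap, the saposin precursor, was at 0.04. The myeloid list went from 6.15% to 1.64% of the UMIs here and the mature neutrophil list from 0.374% to 0.0205%, and their part in these genes was not tested.

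**Figure D4:**
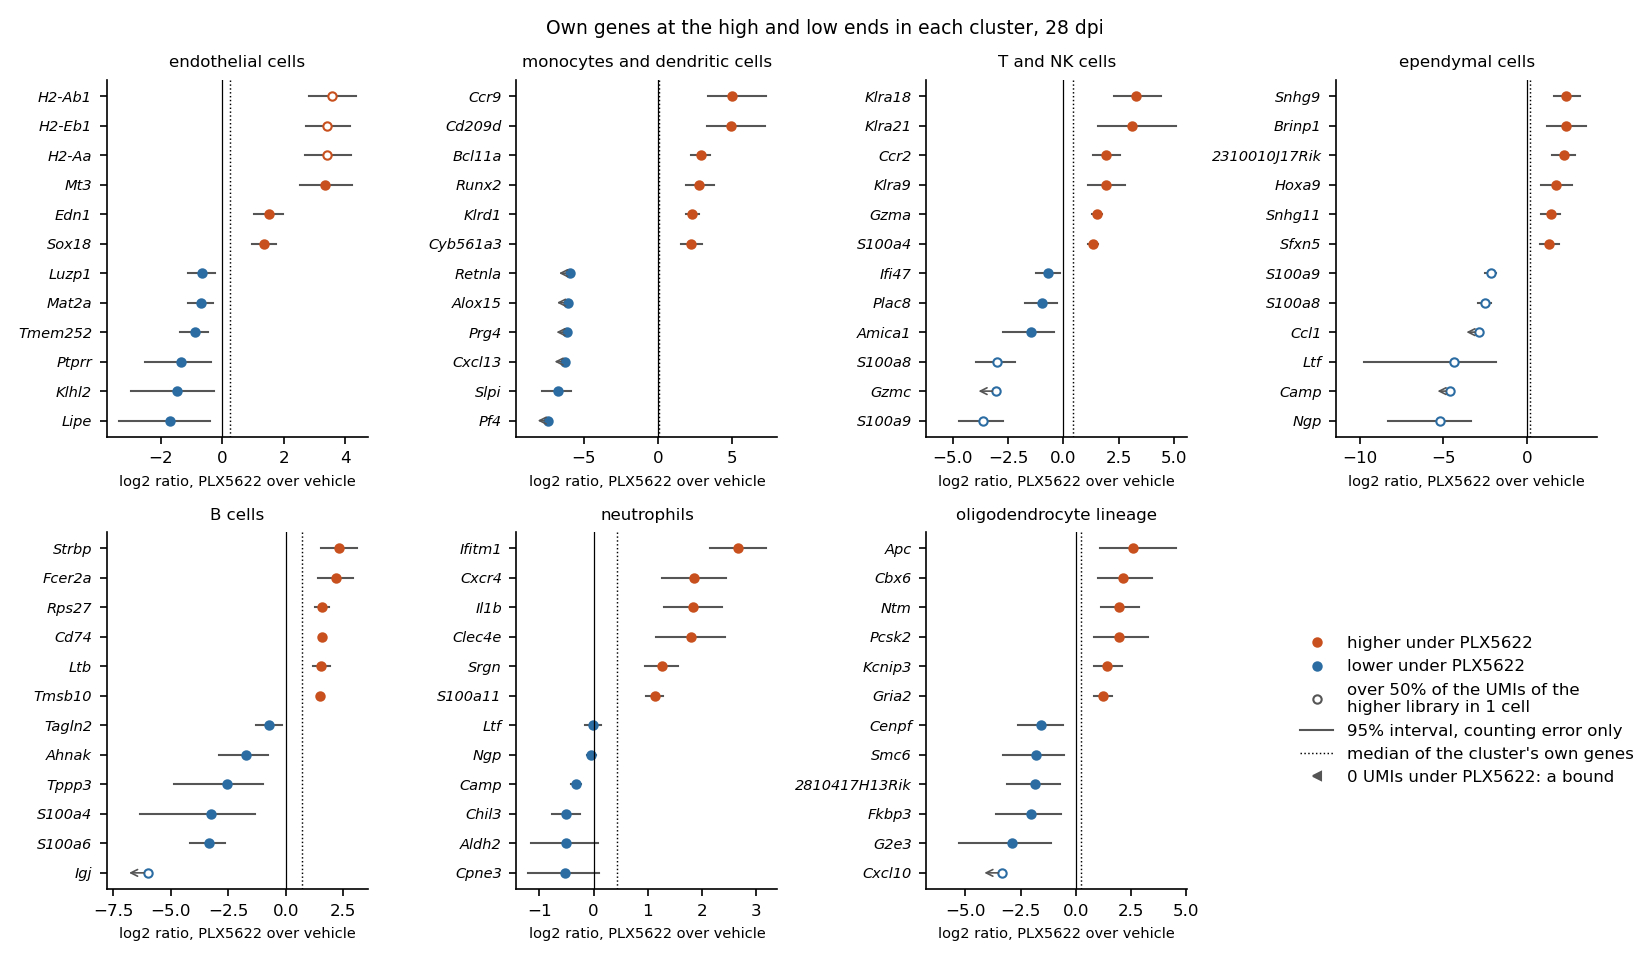
Log2 ratios (PLX5622 over vehicle, 28 dpi) of the 6 own genes at the high end (orange) and the 6 at the low end (blue) of each of the 7 clusters, with 95% intervals for counting error. Dotted lines are the medians of the own genes, arrows mark genes with 0 UMIs under PLX5622, for which the value is a bound, and open circles mark genes with over 50% of the UMIs of the higher library in 1 cell. The widest range is that of monocytes and dendritic cells, from -7.41 for Pf4 to 5.00 for Ccr9. In neutrophils none of the 6 genes shown at the low end reaches a 2-fold difference, while 1 of all 232 own genes there did.

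Neutrophils had 189 vehicle and 32 PLX5622 cells, the fewest of the immune clusters. Cxcr4 and Il1b, genes of aged and activated neutrophils, were higher under PLX5622, whereas the summed levels of granule proteins of younger cells were closer together. Cxcr4, the receptor that returns aged neutrophils to the marrow, went from 159.9 CPM (46 cells) to 577 CPM (22 cells), a log2 ratio of 1.85 (1.26 to 2.44). Il1b, the cytokine interleukin 1 beta, was at 1.84 (1.29 to 2.37) and Clec4e, a receptor for damaged cells and fungi, at 1.79 (1.15 to 2.43). Ifitm1, an interferon-induced membrane protein, was at 2.66 (2.15 to 3.18), with 45.6% of its PLX5622 UMIs in 1 cell. Of the 5 compared genes of the aged and activated list 3 were at least 2-fold higher and none lower, with a median of 1.84, but the third of them, the chemokine Ccl4, was at -0.13 without the top cell of each library.

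Of the 9 compared mature neutrophil genes, 2 were at least 2-fold higher and none lower, with a median of 0.78. The chemokine receptor Cxcr2 and the decoy receptor Il1r2 had log2 ratios of 1.11 (0.67 to 1.54) and 1.40 (0.63 to 2.14). The secondary granule genes Camp, Ngp and Ltf were at -0.32, -0.04 and -0.01, and the 7 compared granule genes had a median of -0.01. Single PLX5622 cells held 33.0% of the Camp UMIs and 42.3% of those of Chil3, and without the top cell of each library Camp was at -0.76, Ngp at -0.27, Ltf at -0.21 and Chil3 at -1.11 instead of -0.51. At least 2 of Camp, Ngp and Ltf were detected in 105 of 189 vehicle cells (55.6%, 48.2 to 62.8%) and 12 of 32 PLX5622 cells (37.5%, 21.1 to 56.3%), or in 72.1% (63.5 to 79.6%) and 40.7% (22.4 to 61.2%) after thinning, with no endothelial cell in either. Beside these, the myeloid list was at -2.45 on the log2 scale, Apoe went from 32031 to 474 CPM, and the median over all compared genes was -0.04. Ribosomal protein genes were lower as a group, from 8.65% to 3.05% of the UMIs, and 67 of 75 were at least 2-fold lower. The median neutrophil held 4.26% under vehicle and 2.83% under PLX5622, a smaller step than in the sum. Of the genes the study named in neutrophils, Apoe and Cxcr4 are given above, and Pram1 and Ier3, which were below the minimum for a comparison, had 55.1 and 243 CPM and 52.4 and 282 CPM. Cd300a, an inhibitory receptor, had 16 and 6 UMIs and was not compared.

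Endothelial identity and barrier genes lay close to the median of the own genes. None of the 18 compared genes of the barrier and transport list and none of the 9 of the growth and angiogenesis list reached a 2-fold difference. Cldn5, the main claudin of the tight junction, went from 3722 to 4391 CPM, a log2 ratio of 0.24 (0.14 to 0.34), and Pecam1 and Cdh5, which join endothelial cells, were at 0.41 and 0.45. The efflux pump Abcb1a was at 0.68 (0.50 to 0.86), the lipid transporter Mfsd2a at 0.73 (0.23 to 1.22) and the thyroxine transporter Slco1c1 at 0.55 (0.36 to 0.74). With few myeloid UMIs these were 0.39, 0.48 and 0.33, and Cldn5 was -0.08. The glucose transporter Slc2a1 was at 0.07 (-0.11 to 0.24) and the surface antigen Ly6a was lower at -0.30 (-0.42 to -0.18).

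The vessel regulators Sox18 and Edn1 were among the own genes at the high end. Sox18, a transcription factor of vessel formation, went from 166 CPM (109 of 420 cells) to 426 CPM (36 of 65 cells), a log2 ratio of 1.36 (0.98 to 1.74), and was 0.99 with few myeloid UMIs. Edn1, the vasoconstrictor endothelin 1, went from 98.0 to 279.6 CPM (1.51, 1.03 to 1.99), with 38.5% of its PLX5622 UMIs in 1 cell and 0.97 without the top cells. Mt3, a metallothionein best known from neural cells, had 18 UMIs in 17 vehicle cells and 48 UMIs in 9 PLX5622 cells (3.35, 2.54 to 4.22), and was 1.95 with few myeloid UMIs. At the low end, Lipe, the hormone-sensitive lipase, had 62 UMIs and 5 UMIs (-1.70, -3.37 to -0.40), the phosphatase Ptprr was at -1.34 (-2.52 to -0.35) and Klhl2, an adaptor for protein degradation, at -1.48 (-2.98 to -0.28), but at 0.19 after thinning to 1000 UMIs. Of the 15 compared immediate early and stress genes, 2 were at least 2-fold lower and none higher, with a median of -0.37 against 0.05 over all genes. Jun was at -0.93 (-1.30 to -0.58), Btg2, an inhibitor of division, at -1.13 (-1.74 to -0.57) and the heat shock gene Hspa1a at -1.20 (-2.46 to -0.14), whereas Ier3 was higher at 0.92 (0.47 to 1.36). With few myeloid UMIs Jun, Btg2 and Hspa1a were at -1.07, -0.85 and -1.61, but Fos, Zfp36 and Junb at -0.23, 0.04 and 0.74.

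The MHC class II genes at the top of the endothelial list rested on 1 cell. H2-Ab1 went from 23.7 to 279.6 CPM (3.56, 2.83 to 4.35) and Cd74 from 66.5 to 709.6 CPM (3.42, 2.98 to 3.87), but 98.5% and 99.4% of their PLX5622 UMIs were in 1 of 65 cells. Without the top cell of each library the ratios were -1.96 and -3.32. In contrast, none of the 8 compared MHC class I genes differed 2-fold, with H2-K1, a classical heavy chain, at -0.21 (-0.43 to 0.00) and B2m, the shared light chain, at -0.47 (-0.66 to -0.27). The adhesion molecule Vcam1 had 40 UMIs in 19 vehicle cells and none in 65 PLX5622 cells, below the minimum for a comparison. Pericyte genes inside the cluster were at 0.95 for Rgs5, with 32.3% of its PLX5622 UMIs in 1 cell, and 0.25 for Vtn, and 0 of the 7 compared mural genes differed 2-fold.

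The cilia and secretion genes of ependymal cells were near their median too. None of the 13 compared cilia genes and none of the 13 compared secreted and surface genes was 2-fold apart, with medians of 0.16 and 0.12 against 0.05 over all compared genes. Foxj1, the regulator of motile cilia, went from 555 to 665 CPM (0.26, 0.03 to 0.49), Ccdc153 was at 0.40 (0.26 to 0.55) and Rarres2, the secreted chemerin, at 0.09 (-0.05 to 0.24). Among abundant genes Mt3, the neural metallothionein, went from 7782 to 12491 CPM (0.68, 0.63 to 0.74) and Nnat, neuronatin, from 3911 to 5587 CPM (0.51, 0.43 to 0.59). With few myeloid UMIs these were 0.47 and 0.36.

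A few ependymal genes of low level were higher. Snhg9, a host transcript of small nucleolar RNAs, went from 28.6 CPM (21 of 275 cells) to 144 CPM (26 of 84 cells), a log2 ratio of 2.33 (1.60 to 3.11), and Snhg11 was at 1.39 (0.82 to 1.97). Brinp1, a neural cell cycle inhibitor, was at 2.28 (1.17 to 3.50), Hoxa9, a homeobox gene of axial position, at 1.73 (0.82 to 2.69), and the mitochondrial carrier Sfxn5 at 1.30 (0.74 to 1.87). The log2 ratios of these 5 genes were above 1 also with few myeloid UMIs, between 1.11 and 2.21.

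In ependymal cells 3 of the 6 compared genes of the MHC class I list were at least 2-fold lower and none higher, with a median of -1.06. B2m went from 565 CPM (110 cells) to 137 CPM (25 cells), a log2 ratio of -2.05 (-2.49 to -1.64), the class I heavy chain H2-K1 was at -1.19 (-1.59 to -0.81) and Psmb8, a subunit of the immunoproteasome, at -2.65 (-4.59 to -1.21). In the cells with few myeloid UMIs B2m was -1.31, H2-K1 -0.99 and Psmb8 -3.75, but Tap2 -0.79, H2-D1 -0.07 and Tapbp 0.32. Without the top cell of each library Psmb8 had 43 vehicle and 2 PLX5622 UMIs. Of the lysosome and lipid list, 8 of 14 compared genes were at least 2-fold lower, with a median of -1.13. Of these, Grn, the growth factor progranulin, was at -1.17, but at 0.020 after thinning, 0.038 without called doublets and 0.40 with each cell weighted alike. Ctsd went from 4342 to 1146 CPM and Apoe from 18343 to 3427 CPM, ratios of -1.92 and -2.42 in all cells and of -0.86 and -0.95 with few myeloid UMIs, and Tmsb4x, an actin binding peptide, was at -1.79 and -0.88. Of the other genes the study named here, Tyrobp, a myeloid adaptor, was at -3.15 and the ribosomal protein Rpl13 at -0.64 (-0.78 to -0.49). Id4 and Arl6, which the study also named, did not share this direction. Both were at 0.13 without the top cell of each library, and at 0.04 and 0.17 with few myeloid UMIs. The neutrophil transcripts Camp, Ngp and Ltf were found almost only under vehicle, in 2 to 7 cells, with 63.4% to 83.1% of the UMIs in 1 cell, and the mature neutrophil list went from 0.200% to 0.0420% of the UMIs. What part such RNA had in the lower genes was not tested.

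Cells of the oligodendrocyte lineage, 55 under vehicle and 39 under PLX5622, had Gria2, Kcnip3, Ntm and Apc among the own genes at the high end and Cenpf, G2e3 and Smc6 among those at the low end. Gria2, a subunit of AMPA glutamate receptors, went from 676 CPM (37 cells) to 1577 CPM (39 cells), a log2 ratio of 1.22 (0.82 to 1.64), and the potassium channel partner Kcnip3 was at 1.44 (0.83 to 2.08). Ntm, the adhesion molecule neurotrimin, was found in 15 vehicle and 34 PLX5622 cells (143 and 558 CPM, 1.97, 1.15 to 2.88). Apc, a brake on Wnt signalling, was at 2.59 (1.08 to 4.57), and Cspg4, the proteoglycan NG2 of precursors, at 1.25 (0.65 to 1.88). With few myeloid UMIs these 5 ratios were 1.13, 1.18, 1.93, 2.65 and 1.14.

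The lineage regulators moved less. Olig1, Olig2 and Sox10 were at 0.72 (0.50 to 0.93), 0.79 (0.30 to 1.29) and 0.72 (0.10 to 1.37), the growth factor receptor Pdgfra at 0.43 (0.07 to 0.80) and Gpr17, a receptor of committed precursors, at -0.10 (-0.62 to 0.42). Of the 10 precursor genes, all compared, 2 were at least 2-fold higher and 1 lower, with a median of 0.72 against 0.03 over all compared genes. The lower member was Tmsb4x, from 6119 to 1955 CPM (-1.65, -1.87 to -1.43), which was -1.40 with few myeloid UMIs. Ntm and Tmsb4x entered the list because the study picked them from these libraries.

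Division genes were carried by few cells, and 2 of the 6 compared genes of the G2 and M phase list were at least 2-fold lower and none higher, with a median of -0.80. Cenpf, a centromere protein, went from 314 CPM in 8 cells to 107 CPM in 3 cells (-1.56, -2.61 to -0.59) and Mki67, the proliferation antigen, was at -1.32 (-2.39 to -0.32) in 11 and 3 cells. At least 2 of Mki67, Top2a and Cenpf were found in 9 of 55 vehicle cells (16.4%, 7.77 to 28.8%) and 3 of 39 PLX5622 cells (7.69%, 1.62 to 20.9%), and in 14.0% (5.30 to 27.9%) and 2.86% (0.0723 to 14.9%) after thinning, with none in endothelial cells. The intervals of these shares overlap, and a difference in the share of dividing precursors was not tested. G2e3 and Smc6, which act in the repair of damaged DNA, were also lower, at -2.88 (-5.28 to -1.11) and -1.80 (-3.27 to -0.51).

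Scaled to total UMIs, astrocytes had the largest median of own genes among the 8 clusters with such genes, 0.95 over 913 genes, with 477 (19.4%) genes higher and 402 (16.3%) lower of 2462 compared genes. B cells were next at 0.71. TMM factors shifted the ratios by -0.50 in astrocytes and -0.23 in B cells, so this rank depends on the scaling. Gfap, the filament protein of reactive astrocytes, went from 336 to 2639 CPM (2.97, 2.69 to 3.26) and was 2.25 with few myeloid UMIs, and C3, a complement protein of one reactive state, was at 3.63 (2.86 to 4.48) and 4.12. The water channel Aqp4 and the gap junction protein Gja1 were at 1.18 and 1.02 in all cells and at 0.20 and -0.01 with few myeloid UMIs. Ribosomal protein genes were lower for 77 of 78 compared members, at 10.7% and 2.65% of the UMIs, but for 8 of 77 with few myeloid UMIs.

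In the remaining myeloid cells, 40 (0.919%) genes were higher and 158 (3.63%) lower of 4353 in microglia, and 155 (2.16%) and 147 (2.04%) of 7192 in MDMs. Surviving microglia had less Spp1, at -3.41 (-3.67 to -3.17), Lpl, at -2.23 (-2.56 to -1.91), and the integrin Itgax, at -2.02 (-3.03 to -1.18), which mark the disease-associated state. Among other genes of that state Apoe, Clec7a and Lgals3 were at -1.15, -1.07 and -1.06, and Fabp5 and Axl at -0.79 and -0.76. Trem2, Cd9 and Gpnmb differed less, at -0.34, -0.30 and -0.17. The homeostatic receptor P2ry12 was somewhat higher, at 0.55 (0.38 to 0.71). Among other homeostatic genes Olfml3 was at 0.53 and Gpr34 and Csf1r at 0.18, but Fcrls at -0.31. MDMs had more Gpnmb, a glycoprotein of lipid-laden phagocytes, from 2591 to 9815 CPM (1.92, 1.89 to 1.95). The scavenger receptor Cd36 was at 1.91 (1.48 to 2.32). Its 66 PLX5622 UMIs lay in 12 cells, 39.4% of them in 1 cell, and it was at 1.25 without the top cells. Mfge8, a bridge to dying cells, was at 4.41 (4.31 to 4.52) in 54 PLX5622 cells, with 26.1% of the UMIs in 1 cell, and at 4.14 without the top cells. Fabp5 and Lgals3 were at 0.99 and 0.85, but Lpl and Itgax at -1.20 and -0.85. Cst7, a cathepsin inhibitor, was lower in MDMs at -1.05 (-1.17 to -0.94) and in microglia at -0.50 (-0.67 to -0.33).

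Few genes were higher in many clusters at once. Ubb, which encodes polyubiquitin, and the transcript BC002163 were at least 2-fold higher in 8 clusters each, Mfge8 and Rpl34 in 6, and Lars2 and Tsix in 5. Ubb went from 290.0 to 934 CPM in T and NK cells (1.69), from 479.9 to 1006 CPM in endothelial cells (1.07) and from 472 to 1029 CPM in ependymal cells (1.13), and it was at 1.68, 1.62 and 1.77 at 7 dpi. Rpl34, a ribosomal protein, was at 1.72 in T and NK cells and 1.82 in B cells, while ribosomal protein genes as a whole had medians of 0.33 and 0.30. With 1 library per diet, a shift of the library and an effect of the diet shared by unlike cell types cannot be told apart.

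The pairs of libraries at 7 dpi and in sham mice were not used to rank the genes and have vehicle libraries of their own. They are not independent for genes that the study named, such as ependymal Ctsd and Ntm in the oligodendrocyte lineage. The other stages were read as separate values, again with 1 pool per diet. At 7 dpi the PLX5622 pool held 23 T and NK, 22 B, 29 monocytes and dendritic and 28 oligodendrocyte lineage cells. In sham it held 21 T and NK cells. Values of these clusters at the other stages thus rest on few cells. Several T and NK genes were also higher at 7 dpi, with Gzma at 1.40, Ccr2 at 1.47 and S100a4 at 0.48, but in sham cords Gzma was at -1.11 and Ccr2 at -0.18. Endothelial Sox18 was 1.86 at 7 dpi and 0.32 in sham, and Edn1 0.78 and 0.85. The 6 endothelial genes at the low end had log2 ratios above 0 at 7 dpi, from 0.28 for Luzp1, an actin-associated protein, to 1.18 for Tmem252, with intervals that include 0 for Luzp1 and Klhl2, and Jun was at 0.56.

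In B cells the gene set led by S100a6 did not keep its direction, with S100a6 at 0.33, Ahnak at 1.65, S100a4 at 2.02 and Tppp3 at 2.28 at 7 dpi, whereas Cd74 was at 1.29 there. In monocytes and dendritic cells the macrophage group was low at both stages, with 7 dpi values of -4.26 for Pf4, -4.83 for Slpi and -5.80 for Prg4. The interferon-stimulated genes of that cluster did not follow, with Irf7 at 0.69 and Oasl2 at 0.53. Ependymal B2m and Ctsd were at -0.97 and -1.42 at 7 dpi and at 1.41 and 1.15 in sham, and Mt3 was higher at all 3 stages, with 0.65 and 0.93. In the oligodendrocyte lineage Ntm was at 0.61, Gria2 at 0.01 and Cenpf at -1.75 at 7 dpi. Only 12 and 11 PLX5622 neutrophils were left at the other stages, too few for a comparison.

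**Figure D5:**
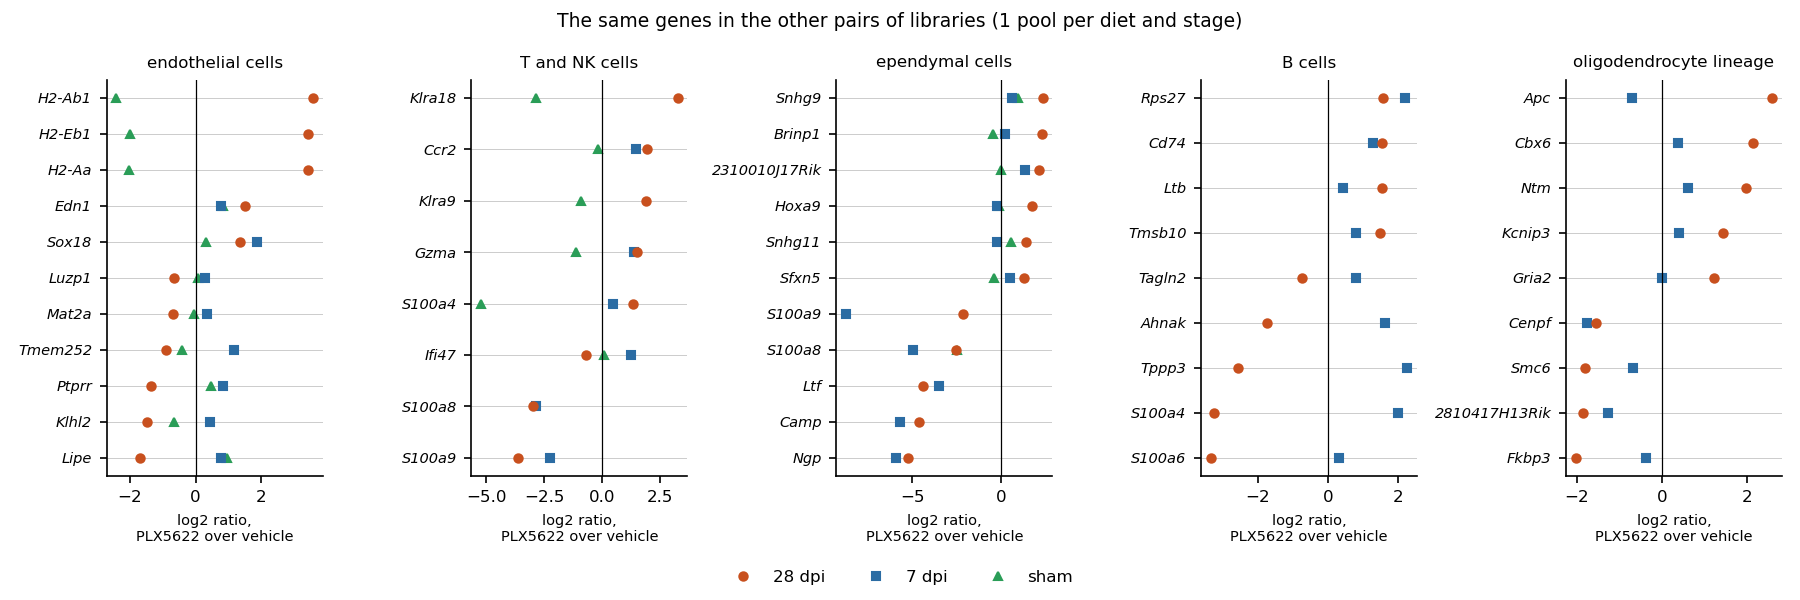
Log2 ratios (PLX5622 over vehicle) of the own genes at both ends in 5 clusters, at 28 dpi (orange circles), 7 dpi (blue squares) and in sham mice (green triangles), where the gene was compared at that stage. The genes were chosen on the 28 dpi values, so the orange points lie at the ends by choice. The B cell genes from S100a6 to Ahnak lie on opposite sides of 0 at 28 and 7 dpi, as do the low endothelial genes, while Ccr2 and Gzma in T and NK cells lie on the same side.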

How the data were processed

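Single-cell libraries were aligned and counted by the authors with Cell Ranger 3.0, and cells were filtered, integrated and clustered with Seurat 3.2.0 (resolution 0.15). The deposited values are raw counts, UMIs per gene and cell, for 16003 genes without mitochondrial genes, and cluster numbers were taken from the deposited annotation. The stated filter removes cells with over 3000 genes, but 51 vehicle and 49 PLX5622 cells above that number were in the table and were kept. Columns were assigned to the vehicle and PLX5622 libraries by their prefix.

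Counts were summed per cluster and library and scaled to the total. With 1 pool per diet no test was possible, so log2 ratios carry exact conditional 95% intervals and shares carry Clopper-Pearson intervals, both for counting error only. A difference is at least 2-fold, for genes with at least 10 UMIs expected in each library. A level of 0 was set to 3 UMIs for a bound. Scripts were tested on simulated data. Sums and intervals were computed with SciPy 1.17.1 and pandas 2.3.3 in Python 3.11.15, doublets were called with Scrublet in scanpy 1.11.5 at 0.8% per 1000 cells, and edgeR 4.0.16 and DESeq2 1.42.0 in R 4.3.3 gave scaling factors only. Other scalings, filters, thinning and subsets of cells were tried as alternatives.

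Named genes were the 6 own genes at either end of each cluster by interval bound, 4 of all compared genes at either end, members of 40 gene lists, markers, and genes the study named for the diet in a cell type. Of 455 listed symbols 20 were not in the table and 5 were matched by an older name. The clusters and lists were chosen with earlier results of these data known, and genes the study named are not independent evidence. Antigen receptor genes with variable segments were not analysed here.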

Additional observations from a re-analysis of the deposited data

Results flagged for a closer look

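Each gene below had log2 ratios (PLX5622 over vehicle) at least 2-fold apart from 0 on opposite sides at 28 dpi and at another stage. There is 1 pool per diet and stage. The PLX5622 pools held 76 endothelial and 21 T and NK cells in sham cords. At 7 dpi they held 22 B and 28 oligodendrocyte lineage cells.

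In endothelial cells 3 MHC class II genes were higher at 28 dpi and lower in sham cords. H2-Ab1 was at 3.56 (21 and 65 UMIs under vehicle and PLX5622) and at -2.40 in sham (89 and 32 UMIs), H2-Eb1 at 3.41 (24 and 67) and -1.98 (83 and 40), and H2-Aa at 3.40 (22 and 61) and -2.03 (122 and 57). Nearly all PLX5622 UMIs of H2-Ab1 at 28 dpi came from 1 cell, as given above, so the high values belong to that cell. The difference between stages was not tested.

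In T and NK cells 3 genes were higher at 28 dpi and lower in sham cords. The NK receptor Klra18 was at 3.28 (10 and 61 UMIs), and in sham its 60 UMIs were all under vehicle, which gives -2.87 as a bound. The granzyme Gzma was at 1.53 (236 and 430 UMIs) and -1.11 (944 and 160), and S100a4 at 1.35 (231 and 370) and -5.22 (102 and 1). The differences were not tested.

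In B cells 3 genes of the group led by S100a6 were lower at 28 dpi and higher at 7 dpi. S100a4 was at -3.26 (91 and 2 UMIs) and 2.02 (158 and 117), Tppp3 at -2.57 (85 and 3) and 2.28 (70 and 62), and Ahnak at -1.75 (144 and 9) and 1.65 (249 and 143). In the oligodendrocyte lineage the myelin enzyme gene Cnp was at 1.05 (20 and 48 UMIs) at 28 dpi and -1.48 (206 and 33) at 7 dpi. These differences were not tested either.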

How the results depend on the processing

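No paired analysis was possible because each diet is 1 library. Depth limits what can be said of PLX5622 neutrophils (32 cells) and oligodendrocyte lineage cells (39 cells) most. The settings with cells under 1% myeloid UMIs, with the total of own genes and without the cell with most UMIs in each library were chosen after seeing the data. Keeping cells with fewer than 3 myeloid UMIs left under 20 vehicle cells in every cluster outside the myeloid ones and gave no value. Over all settings, 4209 values of named genes kept their size within the counting interval, 1213 moved beyond it and 30 changed direction.

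Summed over the 7 clusters, 808 genes were higher and 2095 lower, and of own genes 511 and 181. These counts followed the filter on low values, with 274, 1045, 189 and 71 at a minimum of 20 expected UMIs, 2100, 4365, 1245 and 475 at 5, and 5700, 8144, 2988 and 1072 with no filter. Thinned to 1000 UMIs per cell they were 237, 651, 133 and 89. In cells under 1% myeloid UMIs, in 5 clusters, 635 genes were lower and 209 own genes higher and 168 lower, against 1376, 420 and 82 in all cells of those clusters. Own genes were 196 higher and 342 lower when scaled to the total of own genes, 311 were higher without called doublets and 418 lower with each cell weighted alike. The fewer cells and UMIs left bear on the thinned and subset counts, and otherwise the cause was not tested.

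The shares depended on the denominator. Taken outside microglia and MDMs, the log2 ratios of the shares went from 1.22 to -0.20 for monocytes and dendritic cells, from 1.18 to -0.24 for B cells, from 0.70 to -0.72 for endothelial cells, from 0.83 to -0.59 for neutrophils, from 2.18 to 0.76 for T and NK cells, from 1.68 to 0.26 for ependymal cells and from 2.89 to 1.47 for the oligodendrocyte lineage. In cells with at least 500 genes they were 2.47 for T and NK cells, 1.94 for B cells and 1.37 for neutrophils.

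Some named genes changed direction. In endothelial cells H2-Ab1 (3.56), H2-Eb1 (3.41), H2-Aa (3.40) and Cd74 (3.42) were at -1.47, -1.64, -1.93 and -2.93 without called doublets, at -1.19, -0.41, -0.61 and -2.41 in cells under 1% myeloid UMIs, and at -1.96, -0.66, -1.55 and -3.32 without the top cells, which shows their dependence on 1 cell. In astrocytes under 1% myeloid UMIs Gja1 went from 1.02 to -0.0055, Ctsb from -1.43 to 0.48, Lgmn from -1.20 to 0.61, Npc2 from -1.59 to 0.21, Grn from -2.20 to 0.37 and the lipid and lysosome list from a median of -1.31 to 0.050. Thinning moved Klhl2 in endothelial cells from -1.48 to 0.19 and, in monocytes and dendritic cells, Ace from -1.14 to 0.27 and Rsad2 from -3.92 to 0.13. Grn in ependymal cells (-1.17) was at 0.020 after thinning, 0.038 without called doublets and 0.40 with each cell weighted alike, and Ccl1 (-2.88) at 2.22 without called doublets and 2.55 without the top cells. With each cell weighted alike, Xbp1 in B cells (1.36) and the median of the plasma cell list (1.11) were at -0.10, and Xbp1 was at -0.36 without the top cells. Ccl4 in neutrophils (1.98) was at -0.63 in cells with at least 500 genes and -0.13 without the top cells, and Ccl5 in microglia went from 1.46 to -0.49 without them. The cause was not tested for the others.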

Other observations

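Immediate early and stress genes, which cells switch on quickly when stimulated, were lower in some clusters and not in others. In T and NK cells 7 of 12 compared members were at least 2-fold lower and none higher, with a median log2 ratio of -1.27. In monocytes and dendritic cells 9 of 15 were lower with a median of -1.21, in MDMs 6 of 14 with -0.93 and in astrocytes 7 of 7 with -2.84. Over all compared genes, 12% were lower in T and NK cells, 14.6% in monocytes and dendritic cells, 2.04% in MDMs and 16.3% in astrocytes. Endothelial, ependymal and B cells had medians of -0.37, -0.61 and -0.33, and in neutrophils none of 10 compared members was 2-fold apart, with a median of 0.39. The glycolysis and hypoxia list was lower in B cells for 5 of 7 compared members, with a median of -1.18, against 14.4% of all compared genes. In T and NK cells it was lower for 2 of 9, with a median of -0.63, against 12%. These counts are from all cells, and the part of myeloid RNA in them was not tested.

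Among the genes furthest apart in MDMs were 3 that encode secreted or surface proteins. Npy, a neuropeptide, went from 5.63 CPM (23 of 3313 cells) to 402 CPM in 23 cells, a log2 ratio of 6.16 (5.81 to 6.52), Orm1, an acute phase protein, was at 6.34 (5.56 to 7.23) with 46.0% of its PLX5622 UMIs in 1 cell, and Cd24a, a surface glycoprotein, was at 4.59 (4.14 to 5.06). At 7 dpi Npy had 51.2 CPM under vehicle and 22.3 CPM under PLX5622, the opposite order. Class I genes in the oligodendrocyte lineage were lower for 3 of 3 compared members, with a median of -1.38, against 5.86% of all compared genes. Metallothioneins in astrocytes were higher for 3 of 3, with a median of 1.34, against 19.4% of all compared genes. The own genes of astrocytes had a median of 0.95, and with few myeloid UMIs Mt1, Mt2 and Mt3 were at 0.43, 0.88 and 0.25. The hemoglobin gene Hbb-bs had no UMI in vehicle astrocytes and 30 UMIs in 2 PLX5622 astrocytes.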
